A study of Drosophila melanogaster with 6 samples.

Results

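The glutathione transferases of Drosophila S2 cells were followed across 6 arrays, as the genes whose current symbol is Gst, a class letter (D, E, O, S, T or Z) and a number. Of 11981 genes tested, 34 met this rule, read by 36 of 18952 probe sets: 11 of class D (delta), 13 of class E (epsilon), 3 of class O (omega), 1 of class S (sigma), 4 of class T (theta) and 2 of class Z (zeta). The brightest probe set stood for each gene. Of the 35 genes with such a symbol in the RefSeq gene table, GstE8 had no probe set of its own and was not analysed here. All samples were the DGRC strain of S2 cells, a line started from embryos whose cells resemble macrophage-like blood cells, grown in medium with fetal bovine serum. The control groups were untreated cells, to which no dsRNA was added, and mock cells, which received dsRNA against β-galactosidase. The third group, NELF-depleted cells, received dsRNA against the NELF-B and NELF-E subunits of the negative elongation factor, which holds RNA polymerase II paused shortly after it starts. Both dsRNA treatments lasted 96 hours, and each of the 3 groups had 2 Affymetrix Drosophila Genome 2.0 arrays. Separate cultures behind the 2 arrays of a group are not stated in the labels, and the p-values therefore cover the spread between arrays, which may be technical.

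Glutathione transferases join the tripeptide glutathione to reactive, often toxic compounds, which makes these easier to export, and some members also reduce peroxides. The delta and epsilon classes are insect-specific, largely encoded in tandem gene clusters, and known for the metabolism of insecticides. Omega enzymes act mainly as thiol transferases and reductases, zeta enzymes isomerise maleylacetoacetate in tyrosine breakdown, and theta and sigma enzymes are found in both insects and mammals. In flies several members respond to oxidative stress through Cap-n-collar, the counterpart of mammalian Nrf2, and its inhibitor Keap1.

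Values are quantile normalized log2 levels of the deposited intensities. Background was set at 3.88, the level that 95% of the single values of the 17 tag controls on all 6 arrays did not pass. Deposited array medians ran from 11.71 to 14.15, and from 21 to 27 of the 34 genes lay above background on an array. The mRNAs of both dsRNA targets had fallen in NELF-depleted against mock cells, with log2 changes of -1.94 (SE 0.170) for NELF-B and -2.40 (SE 0.155) for Nelf-E (limma with an intensity-dependent prior, adjusted p = 0.000284 and 7.37e-05). By the mean over all 6 arrays, 6 of 7 markers of macrophage-like blood cells were above background, all but NimC1. So were 1 of 2 neuron markers (elav, 6.36), 1 of 1 Malpighian tubule marker (Irk2, 4.22), 0 of 4 fat body, 0 of 4 gut and 0 of 2 muscle markers, although Lsp2 of the fat body list passed it in mock (4.23) and Act88F of the muscle list in untreated cells (3.98). The 6 blood cell markers had a median log2 change against mock of 0.14. Of these, eater and drpr fell, both at -0.87, whereas Hml (1.23), Pxn (0.52), crq (0.16) and srp (0.11) had higher values that did not pass the test. The part of these markers in the results on transferases was not tested. In such bulk samples fewer cells of a type and less RNA per cell cannot be told apart.

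Group means lay above background in all groups for 21 of the 34 genes, in some groups for GstD2, GstD10 and GstE10, and in no group for 10. All members of classes O, S and T were above background in every group. Levels of different genes come from different probes and cannot be ranked, but the values of one gene can be compared between arrays. The median gap between the 2 arrays of a group was 0.208 for untreated cells, 0.142 for mock cells and 0.208 for NELF-depleted cells over the 22 members whose mean over all 6 arrays was above background. Below background it was 0.602, 0.667 and 0.848, so that dim members carry little information on change.

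**Figure D1:**
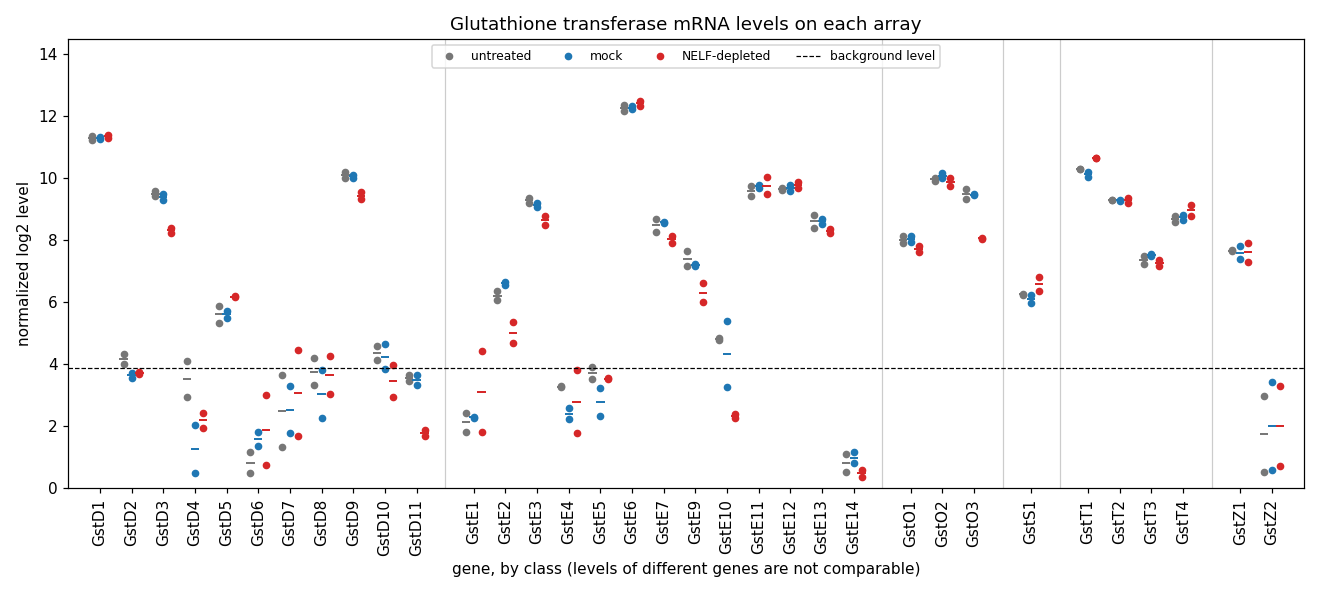
Normalized log2 level (y axis) of the 34 glutathione transferase genes (x axis, by class) on each array, with points for the arrays, short lines for group means and a dashed line at the background level of 3.88. GstO3, GstD3, GstD9 and GstE2 sit lower on both NELF-depleted arrays than on all 4 control arrays, and 10 genes have no group mean above background.

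In NELF-depleted against mock cells 5 of the 34 genes changed. GstO3, GstD3, GstD9 and GstE2 fell, to between 33.3% and 65.1% of their mock level, and GstT1 rose 1.44-fold. The question is which transferase mRNAs depend on NELF, with mock dsRNA as the control for the treatment itself. The 5 called genes are 14.7% of the members, and the same test called 1.35% of all genes (162 of 11981, 130 lower and 32 higher). Among genes with a mean above background, 5 of 22 members (22.7%) and 2.48% of all genes were called. By direction, 4 members (11.8%) were called lower, against 1.09% of all genes, and 1 (2.94%) was called higher, against 0.267%.

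These calls depend on the prior variance in limma. When one prior variance was shared by all genes, 0 genes were called, members or others (smallest adjusted p = 0.139 over all genes and 0.142 over members), although 1097 genes and 8 members had an unadjusted p under 0.05. The intensity-dependent prior gave 1320 genes and 10 members at that unadjusted threshold. "Rose" and "fell" refer here to limma with the intensity-dependent prior, two-sided, at a Benjamini-Hochberg adjusted p under 0.05 over all genes. A single gene cannot reach this threshold by an exact permutation test of 2 against 2 arrays, whose smallest two-sided p is 0.333.

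The omega class held the member with the smallest p. GstO3 (gene identifier 38972) had deposited intensities of 960.9 and 768.3 in untreated, 780.0 and 572.8 in mock and 253.4 and 220.3 in NELF-depleted cells. Its normalized log2 levels were 9.66 and 9.35, 9.46 and 9.50, and 8.05 and 8.08 on the same arrays. Both NELF-depleted arrays were thus lower than all 4 control arrays, and the 2 control groups overlapped. GstO3 fell 2.66-fold against mock (log2 change -1.41, SE 0.117, adjusted p = 0.000253) and 2.71-fold against untreated cells (-1.44, SE 0.117, adjusted p = 0.000176). Of 18 other processing settings, the call was lost in 1 for each comparison, that with a single prior variance (adjusted p = 0.155 and 0.171).

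The other omega genes did not pass the test. GstO1 had levels of 8.15 and 7.90 in untreated, 7.94 and 8.15 in mock and 7.83 and 7.61 in NELF-depleted cells. The NELF-depleted arrays were the lowest ones, with a log2 change of -0.32 (SE 0.148, adjusted p = 0.467) against mock. GstO2 had levels of 9.91 and 10.02, 10.00 and 10.16, and 9.77 and 10.00. Its NELF-depleted arrays overlapped the untreated ones, with a log2 change of -0.20 (SE 0.109, adjusted p = 0.569) against mock. A second, dimmer GstO2 probe set (mean level 6.12) had a difference of 0.24 in the opposite direction. The omega relative sepia (se), which makes an intermediate of the red eye pigment and lies between GstO3 and GstO2, was below background (mean level 2.12).

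Of the delta class, 2 genes fell and the best-known member did not move beyond its spread. GstD3 (gene identifier 48336), whose product lacks the N-terminal stretch that holds the catalytic residue in its relatives, had deposited intensities of 915.7 and 823.9 in untreated, 692.9 and 577.2 in mock and 292.5 and 273.7 in NELF-depleted cells. Its normalized log2 levels were 9.59 and 9.43, 9.29 and 9.51, and 8.25 and 8.39. The NELF-depleted arrays were lower than all 4 control arrays. GstD3 fell 2.11-fold against mock (log2 change -1.08, SE 0.115, adjusted p = 0.00110) and 2.28-fold against untreated cells (-1.19, SE 0.115, adjusted p = 0.000498). Here too, only the single prior variance, of 18 other settings, ended the call in each comparison (adjusted p = 0.192 and 0.189).

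GstD9 (gene identifier 41502) had deposited intensities of 1387 and 1212, 1230 and 820.7, and 640.2 and 610.9 in untreated, mock and NELF-depleted cells. Its log2 levels were 10.19 and 10.01, 10.11 and 10.01, and 9.35 and 9.54, again without overlap between NELF-depleted and control arrays. The fall was 1.54-fold against mock (log2 change -0.62, SE 0.107, adjusted p = 0.0184) and 1.58-fold against untreated cells (-0.66, SE 0.107, adjusted p = 0.0122). It rests on all 4 arrays of the mock comparison: adjusted p was 0.147 without mock replicate 1, 0.0992 without mock replicate 2, 0.201 without NELF-depleted replicate 1 and 0.0625 without NELF-depleted replicate 2. Against untreated cells it was 0.157 without untreated replicate 1 and 0.155 without NELF-depleted replicate 1.

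GstD1, which metabolises DDT and is widely used as a reporter of Cap-n-collar activity, had levels of 11.23 and 11.35 in untreated, 11.34 and 11.28 in mock and 11.41 and 11.30 in NELF-depleted cells. The 3 groups overlapped, with a log2 change against mock of 0.05 (SE 0.0951, adjusted p = 0.919). GstD5 had levels of 5.34 and 5.87, 5.50 and 5.73, and 6.16 and 6.20. Its NELF-depleted arrays were higher than all 4 control arrays, but the value of 0.56 (SE 0.299) did not pass the test (adjusted p = 0.548).

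The remaining delta genes were dim. GstD10 had group means above background in both control groups only. Its levels were 4.59 and 4.13 in untreated, 4.64 and 3.86 in mock and 3.97 and 2.94 in NELF-depleted cells, so that NELF-depleted and mock arrays overlapped. Its NELF-depleted mean was at least 1.26-fold lower than mock, a difference that did not pass the test (adjusted p = 0.719). GstD2 was above background in untreated cells alone, at 4.33 and 4.0, against 3.73 and 3.55 in mock and 3.76 and 3.70 in NELF-depleted cells. GstD4, GstD6, GstD7, GstD8 and GstD11 had no group mean above background, with single values from 0.48 to 4.46. Of these, GstD11 had values from 3.34 to 3.66 on the control arrays and of 1.88 and 1.68 on the NELF-depleted arrays, all below background (adjusted p = 0.396).

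In the epsilon class, 8 of 13 genes had a mean above background, and 5 of these 8 were lower on both NELF-depleted arrays than on all 4 control arrays, as were 13.9% of all genes above background. GstE2 (gene identifier 37107) had deposited intensities of 78.1 and 101 in untreated, 105.3 and 80.2 in mock and 22.3 and 32.6 in NELF-depleted cells. Its normalized log2 levels were 6.06 and 6.37, 6.57 and 6.65, and 4.69 and 5.36. GstE2 fell to 33.3% of its mock level (log2 change -1.59, SE 0.302, adjusted p = 0.0323), and its value of -1.19 (SE 0.302) against untreated cells did not pass the test (adjusted p = 0.119). Both mock arrays were above both untreated arrays, with a difference of 0.39 (SE 0.302).

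The call of GstE2 against mock was lost without untreated replicate 1 (adjusted p = 0.0685) or 2 (0.0811), mock replicate 1 (0.162) or 2 (0.238) and NELF-depleted replicate 1 (0.173), with log2 changes from -1.63 to -1.25. Untreated arrays bear on it through the spread shared by the 3 groups. With an offset of 50 intensity units before the logarithm its change was -0.84 and the call was lost. In all, the call against mock was lost in 10 of 18 other settings. These also include a single prior variance, intensities as deposited, arrays centred on medians and a fit of only the 2 groups compared.

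GstE3 (gene identifier 37108) had deposited intensities of 787.3 and 708.0, 654.6 and 427.0, and 431.7 and 292.9 in untreated, mock and NELF-depleted cells. Its log2 levels were 9.36 and 9.21, 9.21 and 9.08, and 8.79 and 8.48, all NELF-depleted values lying below all control values. The fall passed the test against untreated cells (log2 change -0.65, SE 0.124, adjusted p = 0.0304) but not against mock (-0.51, SE 0.124, adjusted p = 0.0998). It was lost against untreated cells in 9 of 18 other settings. These include a single prior variance, arrays centred on medians, an offset of 50 and a fit of only the 2 groups compared. Against untreated cells it was lost without untreated replicate 1 (adjusted p = 0.303) or 2 (0.126), mock replicate 1 (0.0664) or 2 (0.0648) and NELF-depleted replicate 2 (0.303).

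GstE7 had levels of 8.70 and 8.27 in untreated, 8.59 and 8.57 in mock and 8.15 and 7.90 in NELF-depleted cells, with a log2 change against mock of -0.55 (SE 0.153, adjusted p = 0.162). GstE9 had levels of 7.64 and 7.17, 7.25 and 7.17, and 6.61 and 6.01. Its log2 change was -0.90 (SE 0.236, adjusted p = 0.133) against mock and -1.10 (SE 0.236, adjusted p = 0.0558) against untreated cells. The latter was called in 7 of 18 other settings, 1 of them without NELF-depleted replicate 1 (-1.39, adjusted p = 0.0474). A second GstE9 probe set was below background (mean level 3.20), with a difference against mock of 0.28 in the opposite direction. Over the 18 other settings the GstE9 change ran from -1.35 to -0.311 against mock and from -1.57 to -0.185 against untreated cells. GstE13 had levels of 8.81 and 8.41, 8.70 and 8.54, and 8.38 and 8.24, with a change against mock of -0.31 (SE 0.144, adjusted p = 0.478). In GstE7, GstE9 and GstE13 both NELF-depleted arrays were thus lower than all control arrays, without a call against mock.

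The remaining 3 epsilon genes above background overlapped between groups. GstE6 had levels of 12.38 and 12.16 in untreated, 12.34 and 12.23 in mock and 12.49 and 12.34 in NELF-depleted cells (log2 change against mock 0.13, SE 0.113). GstE11 had levels of 9.76 and 9.43, 9.80 and 9.69, and 10.03 and 9.51 (0.02, SE 0.164). GstE12 had levels of 9.69 and 9.61, 9.59 and 9.79, and 9.68 and 9.87 (0.09, SE 0.108). Adjusted p-values of these 3 genes lay between 0.755 and 0.990.

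GstE10 was above background in controls and below it after NELF depletion, with levels of 4.86 and 4.80 in untreated, 5.38 and 3.27 in mock and 2.40 and 2.25 in NELF-depleted cells. It was at least 1.37-fold lower than mock and at least 1.94-fold lower than untreated cells, neither of which passed the test (adjusted p = 0.333 and 0.211). The 2 mock arrays lay on either side of the background level. GstE1 (values from 1.80 to 4.44), GstE4 (1.77 to 3.83) and GstE5 (2.32 to 3.93) had no group mean above background. Neither had GstE14, also known as noppera-bo and required for ecdysteroid synthesis in the prothoracic gland, whose values lay between 0.36 and 1.16.

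Among the theta genes GstT1 was the member called higher. GstT1 (gene identifier 35995) had deposited intensities of 1497 and 1493 in untreated, 1161 and 943.0 in mock and 1605 and 1327 in NELF-depleted cells. Its normalized log2 levels were 10.31 and 10.31, 10.03 and 10.22, and 10.66 and 10.65, so that the NELF-depleted arrays were highest and the mock arrays lowest. GstT1 rose against mock (log2 change 0.52, SE 0.0946, adjusted p = 0.0238), whereas its value of 0.34 (SE 0.0946) against untreated cells did not pass the test (adjusted p = 0.169). The latter became -0.03 in the intensities as deposited and -0.02 with arrays scaled on hybridization controls. The call against mock was lost in 10 of 18 other settings. These include a single prior variance, intensities as deposited, arrays centred on medians, scaling on hybridization controls and an offset of 50. The rise against mock was lost without untreated replicate 1 (adjusted p = 0.0543) or 2 (0.0527), mock replicate 1 (0.143) and NELF-depleted replicate 1 (0.186) or 2 (0.203).

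The remaining theta, sigma and zeta genes did not pass. GstT2, which lies beside GstT1, had levels of 9.31 and 9.29, 9.28 and 9.31, and 9.37 and 9.20, and a log2 change against mock of -0.01 (SE 0.0987, adjusted p = 0.992). GstT3 had levels of 7.50 and 7.22, 7.49 and 7.56, and 7.37 and 7.18 (-0.25, SE 0.161). GstT4 had levels of 8.79 and 8.59, 8.83 and 8.66, and 8.80 and 9.13 (0.22, SE 0.136). All 3 overlapped between NELF-depleted cells and at least 1 control group.

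GstS1, a sigma enzyme abundant in flight muscle that conjugates the lipid peroxidation product 4-hydroxynonenal, had levels of 6.25 and 6.28 in untreated, 5.98 and 6.23 in mock and 6.83 and 6.37 in NELF-depleted cells. Its NELF-depleted arrays were higher than all controls, but the value of 0.50 (SE 0.245) did not pass the test (adjusted p = 0.506). GstZ1 had levels of 7.70 and 7.64, 7.39 and 7.82, and 7.91 and 7.30. It overlapped in all groups (log2 change 0.00352, SE 0.210, adjusted p = 0.998). GstZ2, its neighbour, had values from 0.51 to 3.44, all below background.

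**Figure D2:**
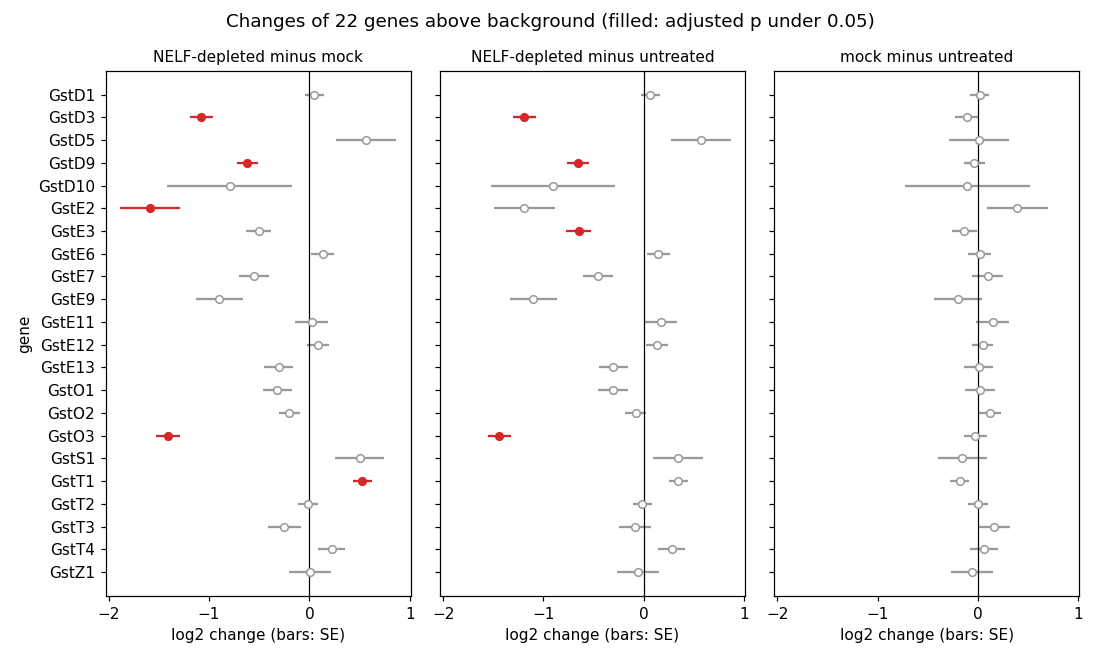
Log2 change (x axis, bars are standard errors) of the 22 glutathione transferase genes with a mean above background (y axis) in the 3 comparisons, filled where the adjusted p is under 0.05. Against mock 5 genes are filled and against untreated cells 4, while none is filled for mock minus untreated.

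The classes differed in how many members lay above background and in their median changes, which are given as descriptions. Against mock, the median log2 change of members with a mean above background was -0.62 for 5 delta genes, -0.41 for 8 epsilon genes, -0.32 for 3 omega genes and 0.10 for 4 theta genes, beside 0.50 for GstS1 and 0.00352 for GstZ1. The delta median, which is the value of GstD9, counts GstD10 (-0.795), whose NELF-depleted mean lay below background. The 5 delta genes ran from -1.08 to 0.56. Over all 22 genes the median was -0.22, and over the 6532 genes above background 0.01. The median absolute change was 0.41 over these 22 members and 0.14 over all genes above background. A lower value was seen in 13 of 22 members and in 47.5% of all such genes.

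Both NELF-depleted arrays lay below all 4 control arrays in 11 of the 34 genes (32.4%), against 11.0% of all genes. Among those with a mean above background they did so in 9 of 22 members (40.9%), against 13.9%. These 9 were GstD3, GstD9, GstE2, GstE3, GstE7, GstE9, GstE13, GstO1 and GstO3. Both lay above all controls in GstD5, GstS1 and GstT1, which are 3 of 22 members (13.6%), against 14.3% of all genes above background, a share close to that background.

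Against untreated cells 4 of the 34 genes changed, all lower: GstO3, GstD3, GstD9 and GstE3. They are 11.8% of the members, against 1.41% of all genes called (169 of 11981), 1.18% called lower and 0.234% called higher. Among genes with a mean above background they are 4 of 22 members (18.2%), against 2.54% of all such genes, 2.11% of them lower and 0.429% higher. This comparison shares the NELF-depleted arrays with that against mock, so the 2 are not independent of each other. Median changes were -0.66 for delta, -0.38 for epsilon, -0.30 for omega and 0.13 for theta genes above background, and -0.09 over all 22. The delta genes again include GstD10 (-0.903). With a single prior variance 0 genes were called, with 8 members and 1044 genes at an unadjusted p under 0.05.

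Mock and untreated cells did not differ by any call. Limma with the intensity-dependent prior called 0 of 11981 genes (0%), with 408 genes and 1 member at an unadjusted p under 0.05, and the single prior also called 0, with 602 genes and 2 members. The member by the intensity-dependent prior was GstD4, below background in all groups (adjusted p = 1). Changes of the 22 members above background lay between -0.20 for GstE9 and 0.39 for GstE2, with a median of 0.00685 and a median absolute change of 0.08.

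Of the delta genes all but GstD11, and of the epsilon genes all but GstE11, GstE12, GstE13 and GstE14, form a run of 10 neighbouring genes each in the RefSeq gene order, the epsilon run including GstE8. The table was used for order alone, and values differed between neighbours within a run. In the delta run GstD9, at -0.62 against mock, is followed by GstD1 at 0.05. GstD3, at -1.08, lies between the dim genes GstD2 and GstD4. GstD5, 2 places on from GstD3, had a value of 0.56 that did not pass the test. In the epsilon run GstE2 (-1.59) and GstE3 (-0.51) are neighbours, and GstE6 (0.13) is followed by GstE7 (-0.55). GstT1 (0.52) and GstT2 (-0.01) are also neighbours. No test of the difference between neighbours was made. None of the 6 genes called in any comparison overlaps another gene in that table, but GstE9 overlaps imd, GstE10 overlaps GstE1, GstO2 overlaps se, GstE12 overlaps CG3894, GstE13 overlaps CG18659 and GstT2 overlaps CG12926. All but GstS1 and GstZ2 were read by probe sets whose plain suffix marks probes designed for a single transcript. Whether near-identical copies share probes was not tested.

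**Figure D3:**
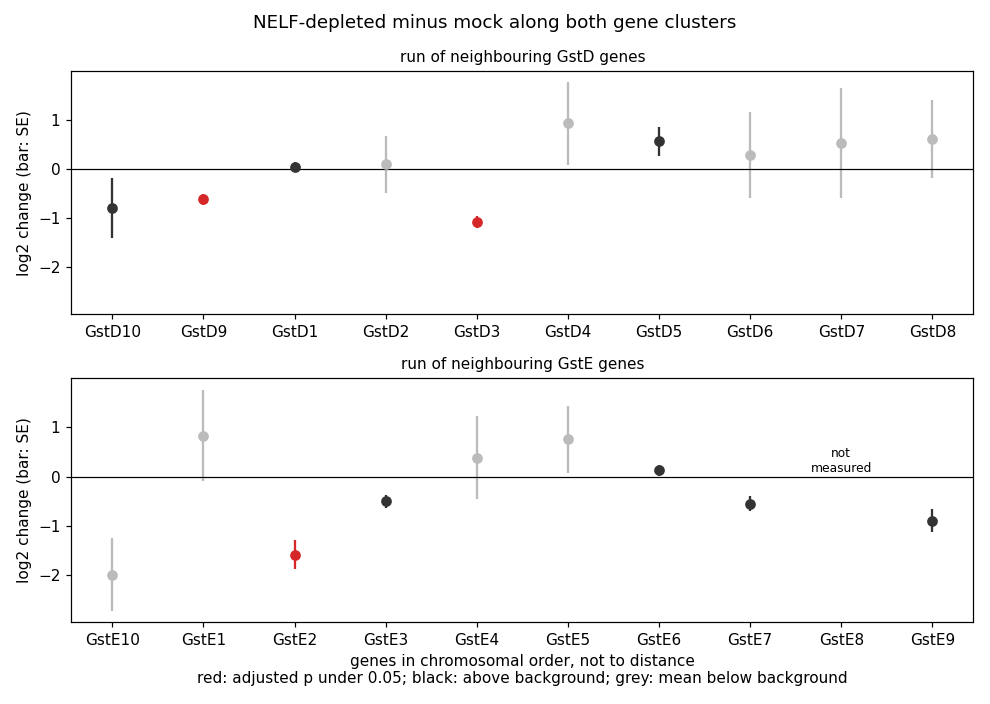
Log2 change of NELF-depleted minus mock (y axis, bars are standard errors) for neighbouring delta and epsilon genes in chromosomal order (x axis, not to distance). GstD9 and GstD3 (red, -0.62 and -1.08) are separated by GstD1 at 0.05 and the dim GstD2. GstE2 is the red point of the epsilon run at -1.59.

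Scaling between arrays moved the counts. With intensities as deposited 2 members were called against mock, both lower, of 54 genes called (53 lower and 1 higher). With arrays centred on medians 2 members were called lower, of 54 genes (48 lower and 6 higher). Scaled on the spiked-in hybridization controls, 13 members and 2709 genes were called lower, and 0 members and 17 genes higher. With the hybridization controls the median change of all genes against mock was -0.42. Relative to that median GstO3 was at -1.43, GstD3 at -1.09, GstE2 at -1.67, GstD9 at -0.62 and GstT1 at 0.55. Such relative values are no separate check, since scaling by a constant per array moves all genes alike. The change of GstT1 itself was 0.12 there and was not called. GstO3 and GstD3 were called against mock under each of these scalings and without any single array. Leaving out any 1 of the 6 arrays left 2 or 3 members called against mock: 3 without untreated replicate 1 or 2, 2 without mock replicate 1, 3 without mock replicate 2, 2 without NELF-depleted replicate 1 and 3 without NELF-depleted replicate 2.

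**Figure D4:**
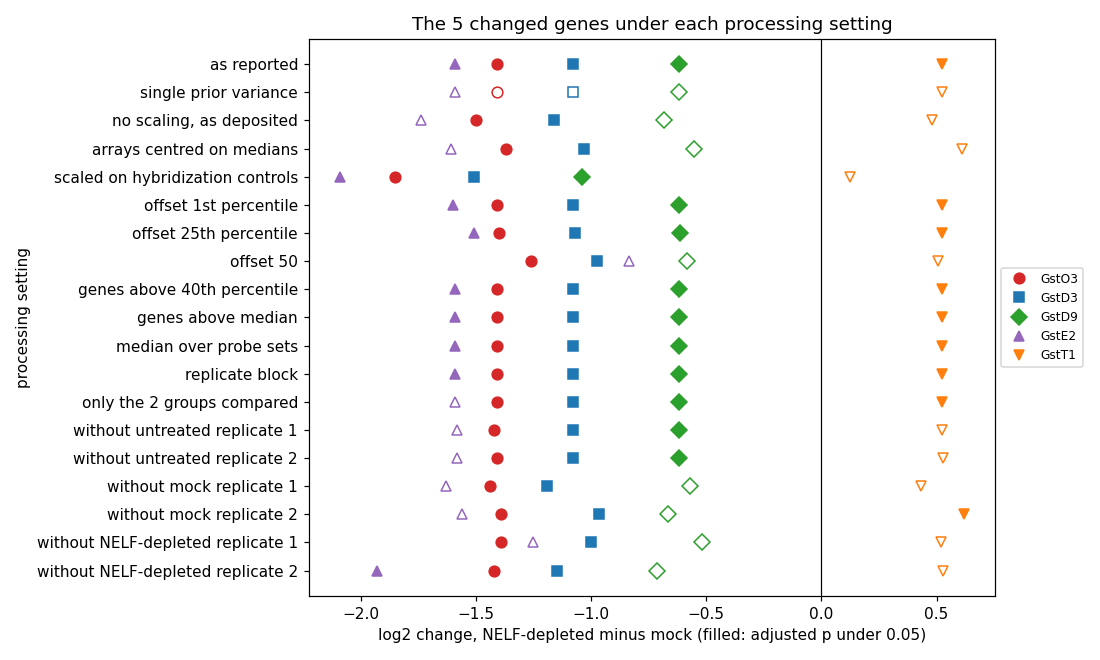
Log2 change of NELF-depleted minus mock (x axis) for the 5 genes called in that comparison under the processing as reported and 18 other settings (y axis), filled where the adjusted p is under 0.05. GstO3 and GstD3 are open under the single prior variance alone, whereas GstD9, GstE2 and GstT1 are filled in 10, 8 and 8 of the 18 other settings.

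Genes that work around the transferases were taken from 8 lists. Of 52 genes on them, 43 were measured, 30 with a mean above background, and 0 were called in NELF-depleted cells against mock or untreated cells by limma with the intensity-dependent prior. With 1.35% and 1.41% of all genes called in these comparisons, a count of 0 among 43 is close to the background. All 5 measured glutathione supply genes were above background (median log2 change against mock 0.02). Gclc, the catalytic subunit of the enzyme that limits glutathione synthesis, had a value of 0.29 (SE 0.0969, adjusted p = 0.270), and Cbs, which provides cysteine precursors, one of -0.37 (SE 0.137, adjusted p = 0.338). Of 12 measured redox enzymes 9 were above background (median -0.08). Cat, catalase, had a value of 0.46 (SE 0.123, adjusted p = 0.145), Gtpx, a peroxidase of the glutathione peroxidase family, one of 0.32 (SE 0.0967, adjusted p = 0.217), and Sod2, the mitochondrial superoxide dismutase, one of -0.30 (SE 0.104, adjusted p = 0.278).

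All 6 regulators were above background (median -0.02). The Cap-n-collar gene cnc had a value of -0.29 (SE 0.0954, adjusted p = 0.262), Keap1 one of 0.19 (SE 0.219, adjusted p = 0.825) and foxo, a stress-responsive transcription factor, one of 0.60 (SE 0.128, adjusted p = 0.0553). Of 7 measured genes on a list of relatives and other transferases, 1 of them GstE14 again under an older name, 4 were above background (median 0.09). Mgstl, a microsomal transferase, had a value of -0.51 (SE 0.148, adjusted p = 0.187) and Clic, a chloride channel, one of 0.34 (SE 0.101, adjusted p = 0.204).

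Around the zeta class, 1 of 4 measured tyrosine breakdown genes had a mean over all 6 arrays above background (Tat, -0.16, SE 0.598). In NELF-depleted cells Tat lay just below it (3.87) and Faa passed it (3.98). Around the omega class, 2 of 4 pteridine pigment genes were above background (median -0.08), pr at -0.14 and DhpD at -0.03. The exporter gene MRP, whose product carries glutathione conjugates out of cells, had a value of 0.28 (SE 0.135, adjusted p = 0.490) and was the only 1 of 3 exporter genes with a mean over all 6 arrays above background, Mrp4 passing it in mock (4.65) and NELF-depleted cells (4.27). The 2 measured aldehyde handling genes were Aldh-III (-0.26, SE 0.138) and Glo1 (-0.15, SE 0.0995), glyoxalase I.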

How the data were processed

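Messenger RNA of 2 untreated, 2 mock and 2 NELF-depleted samples was measured on 6 arrays, grouped by the sample titles. The authors deposited 1 linear intensity per probe set and array. Per the labels and the series design text, images came from 1 of 2 programs, Affymetrix Command Console 1.1 or, under its full name, GeneChip Operating Software 1.2.0.037, before import into Rosetta Resolver 6.0. How probes were summarised, background handled and arrays scaled is not given in the sources used here.

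Deposited intensities were turned into log2(intensity + 0.819). This offset, their 5th percentile, makes the changes of dim genes come out too small. Array medians differed by 0.257 (more than 0.1), so arrays were quantile normalized over 18952 probe sets. The 183 controls were left out. Probe sets with exactly 1 gene (13647) were kept, not those with several (402) or not listed (4720), and the brightest stood for its gene. Symbols of 11893 of 11981 genes were updated through the RefSeq gene table (Release 6 plus ISO1 MT). Limma 3.58.1 in R 4.3.3 fitted 3 group means over all arrays (3 residual and 7.31 prior degrees of freedom, intensity-dependent prior, no block), two-sided, adjusted over 11981 genes. The scripts were run on simulated data with known changes. The check covered the size of the estimated changes, not the calls. Where only the lower group mean was below background, the fold is a lower bound from the background level. The 6 arrays limit the precision.

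The members, lists and tests were chosen with earlier results of these data known, including that a single prior variance calls no gene. Every member above background in a group is named with its values on each array, and the others with ranges. Both dsRNA targets are named as a check. From each pathway list, up to 3 genes of smallest p were taken among those with a mean above background. Dimmer genes were passed over even at a smaller p. Keap1, se, pr, DhpD, Tat, Aldh-III and Glo1 were named for their roles or as all that was measured or above background. Faa and Mrp4 were named for group means above background. Promoter motifs and protein identity, also planned, were not analysed here. Alternatives were the prior, scaling, offset, filter on dim genes, probe set rule, replicate block, groups in the fit and leaving out each array.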

Additional observations from a re-analysis of the deposited data

How the results depend on the processing

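No called value of a transferase gene changed direction in the 18 settings, while the counts called moved. Against mock, 162 genes and 5 members were called. The single prior variance gave 0 and 0, intensities as deposited 54 and 2, arrays centred on medians 54 and 2, hybridization controls 2726 and 13, and an offset of 50 gave 74 and 2. Limiting the test to genes above the median gave 247 genes and 6 members. The replicate number as a block gave 271 genes and 8 members against mock, adding GstE3, GstE7 and GstE9 (adjusted p = 0.0205, 0.0497 and 0.0351), and 270 genes and 5 members against untreated cells, adding GstE9 (0.0124). The labels do not say what the numbers mark, and with 2 pairs per comparison they were not taken as pairing, although same-numbered arrays deviated together (correlations across 6532 genes from 0.145 to 0.158). Leaving out each array gave 69 to 126 genes and 2 to 3 members against mock, and 70 to 146 genes and 2 to 4 members against untreated cells, where 169 and 4 had been called. There the single prior gave 0 and 0, hybridization controls 2118 and 13, and an offset of 50 gave 89 and 2. The cause of these shifts was not tested. The median change of the 22 members, -0.225 against mock, was -0.641 with hybridization controls, -0.131 with the median over probe sets, and -0.32 to -0.167 without single arrays. Against untreated cells (-0.0864) it was -0.519 as deposited, -0.288 with arrays centred on medians, -0.504 with hybridization controls and -0.275 to -0.0659 without single arrays. In mock against untreated cells (0.00685) it was -0.356 as deposited, -0.255 with arrays centred on medians, and -0.105 to 0.0718 without single arrays. Of 57 member values not called, 37 changed sign in at least 1 setting and 16 were called in at least 1. Signal over background limits the 10 members with no group mean above it.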
